A study of Mus musculus with 2 samples.

Results

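CTCF peaks that lie deep in gene deserts of the mouse genome were taken from ChIP-seq of E14TG2a.4, a male embryonic stem cell line of strain 129/Ola. A peak was a member when its midpoint fell outside every span of a protein-coding gene and more than 100 kb from every protein-coding transcription start, on the autosomes of build mm9 with the GENCODE vM1 annotation. The rule took 3691 of the 38519 autosomal peaks in the list called on both libraries together, which holds 39353 peaks in all. The study has a single group, with no other treatment or genotype: 2 libraries, labelled biological replicates 1 and 2, made with an antibody to CTCF. Both come from the same cell line, and nothing in the labels says how the cultures were separated, so the spread between them may be partly technical. The peak lists of replicates 1 and 2 were called separately and held 3356 and 3413 peaks by the same rule. Reads per peak are not in the lists, so the depth is unknown.

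CTCF is a zinc finger protein that binds a long, directional DNA motif and halts the loop-extruding cohesin complex, so that pairs of sites whose motifs point towards each other tend to anchor chromatin loops. Gene deserts are long stretches without coding genes. Those beside developmental regulators often carry distant enhancers, and some are late-replicating and poor in transcription. In rodents many CTCF sites arose within copies of the B2 element, a short interspersed repeat that carries a CTCF-like word.

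The sequences shown here are windows around the best motif score of desert peaks. They are picked examples and do not stand for all members. Each window is 59 bases of mm9 read 5′ to 3′ on the strand of the motif, with the 19 best-scoring positions in capitals. The motif was learned from peaks outside the deserts, and its most frequent bases were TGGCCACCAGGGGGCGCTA. The first set holds windows from 4 of the deserts with most peaks, named by their flanking genes.
Gm4868 to Tmem132c, chr5:126444587-126444645, minus strand: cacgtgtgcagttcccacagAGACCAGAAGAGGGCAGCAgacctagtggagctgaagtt
Gm4868 to Tmem132c, chr5:126872847-126872905, minus strand: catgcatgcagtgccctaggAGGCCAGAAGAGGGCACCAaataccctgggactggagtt
Med13l to Tbx3, chr5:119379207-119379265, minus strand: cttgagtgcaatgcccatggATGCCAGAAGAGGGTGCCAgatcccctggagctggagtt
Nphp4 to Ajap1, chr4:152074394-152074452, plus strand: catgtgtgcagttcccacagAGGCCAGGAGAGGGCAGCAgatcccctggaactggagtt
Kazn to Prdm2, chr4:142207746-142207804, plus strand: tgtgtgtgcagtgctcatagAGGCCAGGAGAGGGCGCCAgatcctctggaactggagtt

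These windows share bases beyond the motif although they lie in 4 deserts on 2 chromosomes. The Nphp4 to Ajap1 window was identical to that of Kazn to Prdm2 at 51 of 59 positions. It was identical to the first Gm4868 to Tmem132c window at 50 positions and to the Med13l to Tbx3 window at 47. Not all windows of these deserts are alike: another of Gm4868 to Tmem132c, not shown, was identical to the first at 31 positions. Windows of 2 other full deserts, also not shown, were less alike. Those of Fam86 to Rbfox1 and Igsf11 to Lsamp were identical to the Nphp4 to Ajap1 window at 23 and 24 positions.

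The second set pairs windows from 2 deserts of chromosome 12 whose peaks lie mostly in words that occur more than once in the genome.
Gm17680 to Gm17391, chr12:22877967-22878025, minus strand: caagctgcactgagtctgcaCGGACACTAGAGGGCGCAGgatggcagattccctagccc
Gm9257 to Gm10479, chr12:20000167-20000225, minus strand: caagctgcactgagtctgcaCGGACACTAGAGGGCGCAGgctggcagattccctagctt

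They were identical at 56 of 59 positions. The third set holds 3 of the 10 strongest desert peaks and the one farthest from a coding gene start. The best scores of the Rps24 and Hdac4 windows, 14 and 15.9 bits, are below the limit of 18.2 bits used for a motif call in what follows. Around the Ywhaq peak 52.5% of the 24-base words occur at least 2 times in the genome.
Rps24 to Zmiz1, chr14:25936074-25936132, plus strand, strongest member: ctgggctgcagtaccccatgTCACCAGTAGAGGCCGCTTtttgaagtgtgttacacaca
Hdac4 to Ndufa10, chr1:94257049-94257107, minus strand, number 2 by strength: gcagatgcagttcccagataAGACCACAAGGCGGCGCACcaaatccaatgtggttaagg
Ywhaq to Gm17680, chr12:21531598-21531656, plus strand, number 10 by strength: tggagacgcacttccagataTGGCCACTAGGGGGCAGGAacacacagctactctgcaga
Cntnap5b to Cdh20, chr1:104275341-104275399, minus strand, farthest member: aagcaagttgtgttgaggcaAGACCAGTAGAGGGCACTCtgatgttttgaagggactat

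Desert peaks were sparse. Deep deserts made up 29.7% of the known autosomal sequence (710.6 Mb) and held 9.58% of the peaks. This is 5.19 peaks per Mb, against 20.7 per Mb in the other 1683.2 Mb. The intergenic sequence nearer to genes held 22.5 peaks per Mb and the coding gene spans 19.3. The ratio of the density in deserts to that elsewhere was 0.246 in replicate 1 and 0.248 in replicate 2, or 0.247 ± 0.00108 (SD, n = 2). No test between classes of sequence was run on densities and shares, which are given as descriptions. The desert density was the lower on 19 of 19 autosomes. It ranged from 3.76 per Mb on chromosome 3 to 7.48 on chromosome 9.

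High-scoring matches to the motif were sparse in deserts too. At the score reached by 1% of windows that flank peaks, 18.2 bits, the deserts held 4905 motif matches, or 6.90 per Mb, and the other sequence held 48368, or 28.7 per Mb. The ratio of these match densities was 0.240, beside 0.251 for the peaks of the pooled list. Many matches carry the leading word described below, which lay inside a peak less often than the rest. It was in 59.6% of desert matches and 67.0% of the others. Without these matches the ratio was 0.294, above that of the peaks. Of all desert matches, 31.7% lay inside a peak (95% exact binomial interval 30.4 to 33.0), against 35.2% elsewhere (34.8 to 35.6). Binomial intervals here cover counting error only.

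Density, occupancy and strength all went down with distance from coding genes. Between 100 and 250 kb from a coding start there were 7.92 peaks per Mb, between 250 and 500 kb 4.62, between 500 and 1000 kb 2.29, and beyond 1000 kb 1.30. Motif matches went from 10 per Mb in the nearest class to 2.54 in the farthest. The share of matches inside a peak was 35.1% (33.3 to 36.8) in the nearest class, 29.5% (27.1 to 32.1) and 23.4% (20.0 to 27.2) in the next ones, and 16.4% (10.9 to 23.3) beyond 1000 kb, where it rests on 25 of 152 matches. Peaks thus thinned by more than the matches did. Base composition moved along with distance: the median GC content within 150 bp of the midpoint was 44.9% in the nearest class and 40.7% in the farthest. Its part in these values was not tested.

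**Figure D1:**
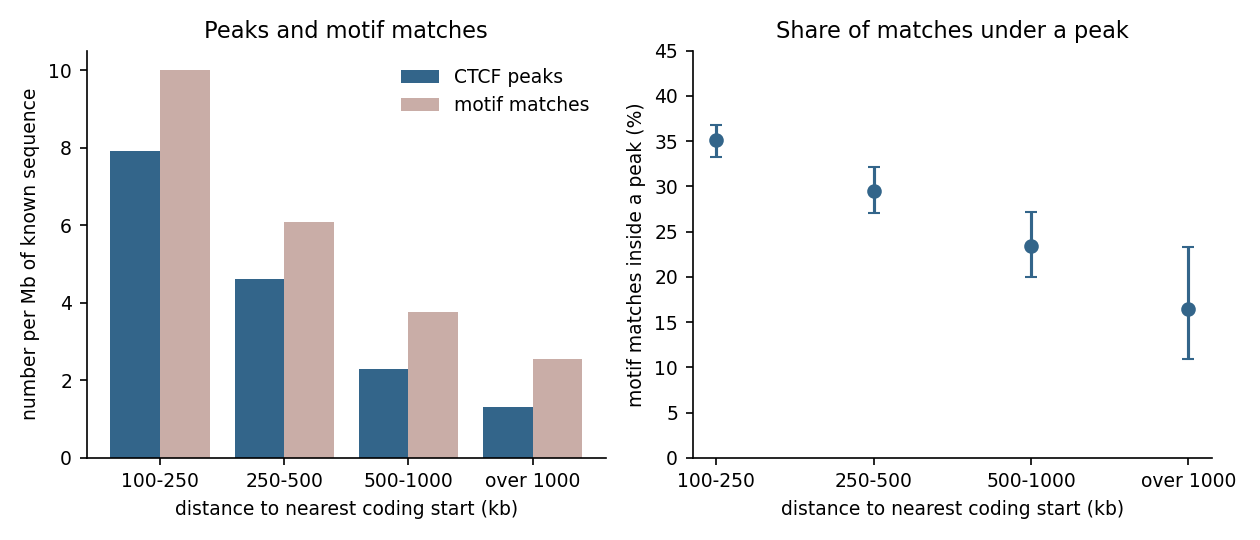
Left, CTCF peaks and motif matches per Mb of known desert sequence by distance to the nearest protein-coding start; right, the percent of motif matches inside a peak of the pooled list, with 95% exact binomial intervals. Peaks went from 7.92 to 1.30 per Mb and occupied matches from 35.1% to 16.4%.

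Desert peaks were weaker than the others, where strength is the fold enrichment the authors' peak caller gave each peak. In the pooled list the desert peaks had a median of 10.6-fold (quartiles 7.17 and 14.6, range 3.04 to 31.4), and the other autosomal peaks one of 12.4-fold (8.02 and 17.2). The replicate 1 medians were 12.1 in deserts and 14 elsewhere, and those of replicate 2 were 12 and 14.3. Both desert medians were below both of the others, and the ratio was 0.853 ± 0.0181 (SD, n = 2). The exact two-sided permutation test over these 4 medians gave p = 0.333, the smallest it can give; the same 2 libraries stand on both sides, so it is not a test over separate samples. The ratio was below 1 on 19 of 19 autosomes in each of the 3 lists, and lay between 0.748 on chromosome 5 and 0.977 on chromosomes 1 and 10 in the pooled list. No desert peak was among the 100 strongest autosomal peaks, 33 were among the strongest 1000 and 237 among the strongest 5000, which is 4.74% of them.

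Strength also went down with distance. The pooled median was 11.1-fold at 100 to 250 kb (2286 peaks), 10.1 at 250 to 500 kb (989), 8.86 at 500 to 1000 kb (338) and 8.30 beyond (78). Replicate 1 gave 12.9, 11.3, 10 and 9.50, and replicate 2 gave 12.6, 11.7, 10.3 and 9.86, the same order in each. At the limit itself there was no step down: the 297 peaks at 100 to 110 kb had a median of 12.1-fold and the 332 intergenic peaks at 90 to 100 kb one of 11.2.

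**Figure D2:**
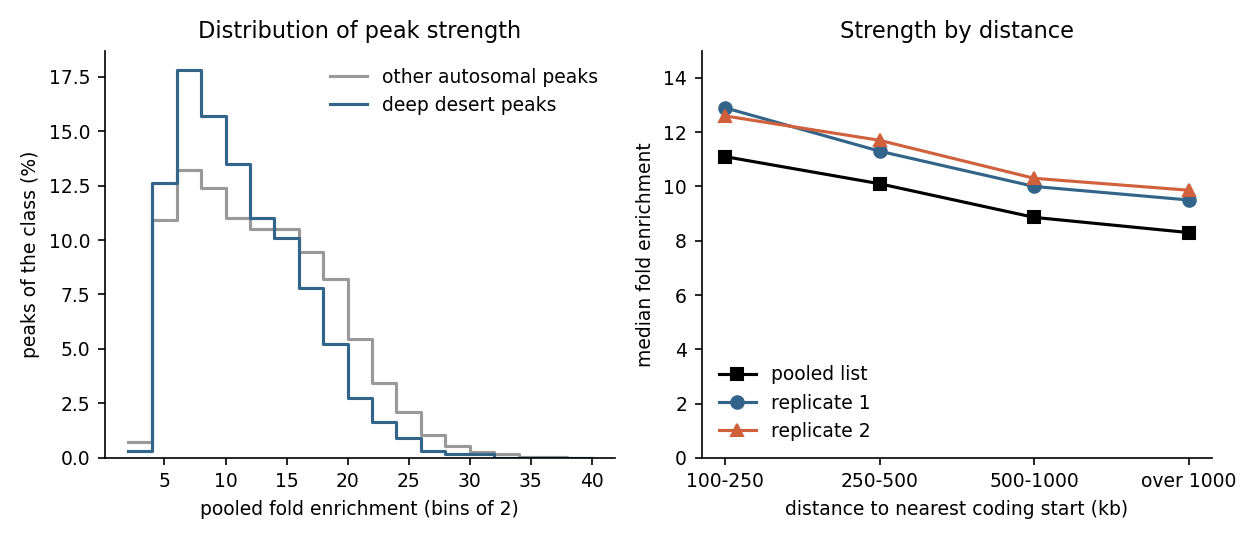
Left, the percent of desert peaks and of other autosomal peaks in bins of pooled fold enrichment; right, the median fold enrichment of desert peaks by distance in the pooled list and each replicate. Desert peaks lie lower, with medians of 10.6 and 12.4, and both replicates go down with distance.

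The desert peaks overlapped a call in both replicate lists nearly as often as the rest. The pooled list was called on the same 2 libraries, so this is not a test on independent data. Of the 3691 members, 3063 overlapped a peak in each replicate list, which is 83.0% (81.7 to 84.2), beside 86.2% of all autosomal peaks and 86.5% of the others. Replicate 1 alone held 238, replicate 2 alone 269, and 121 were in neither replicate's list. Among peaks of like strength the shares were close: in the weakest 20% of autosomal peaks (up to 7.17-fold) 34.6% of desert peaks and 35.3% of other peaks were in both lists, and in the next 20% (up to 10.4-fold) 95.6% and 95.8%. Across the 3063 shared members the fold enrichments of the replicates had a Spearman correlation of 0.875 and a Pearson correlation of 0.871 on the log2 scale, a description over peaks from the same libraries. For other peaks these were 0.908 and 0.902. The replicates were within 1.5-fold of each other for 94.1% of shared members. The SD of the log2 ratio between replicates was 0.307 over shared members and 0.291 over other peaks in both lists.

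**Figure D3:**
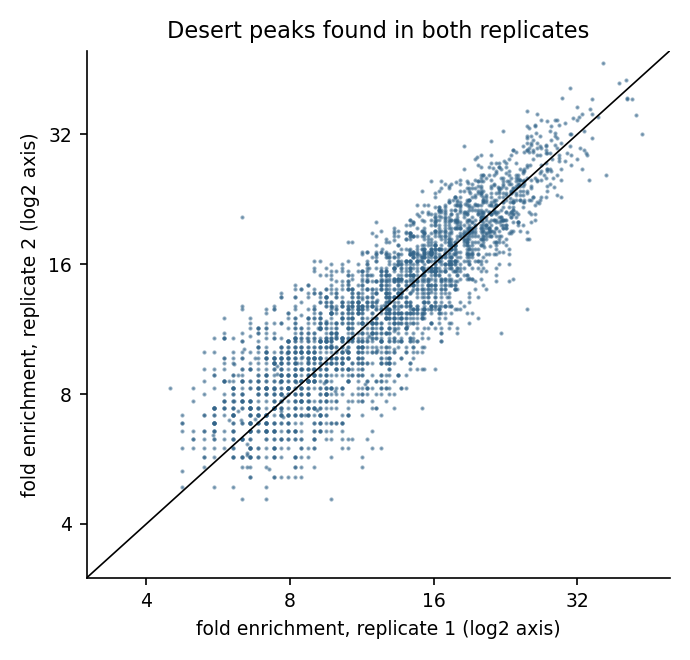
Fold enrichment of the 3063 desert peaks found in both replicates, replicate 1 against replicate 2, both on log2 axes, with the line of equality. The points follow the line, with a Spearman correlation of 0.875.

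Of the 3063 members called in both libraries, 4 were over 2-fold higher in replicate 1 and 3 in replicate 2. Neither these counts nor the share within 1.5-fold are given for other peaks, so they describe the members only. Members called in a single list or in neither have no ratio. The widest gap was at a peak between Nox3, a superoxide-producing NADPH oxidase, and Arid1b, a chromatin remodelling subunit. It had 6.34-fold enrichment in replicate 1 and 20.6-fold in replicate 2, held no motif, and 98.6% of the 24-base words around its midpoint occur at least 2 times in the genome. In the other direction a peak between Rap1b and Mdm1 had 9.77-fold in replicate 1 and 4.57-fold in replicate 2. A peak between Nr2f1, an orphan nuclear receptor of neural development, and Arrdc3 had 11.3-fold and 5.43-fold, and one between Tbl1xr1 and Gm7536 had 12.4-fold and 6-fold. Higher in replicate 2 were also peaks between Stim2, a calcium sensor of the endoplasmic reticulum, and Pcdh7, with 5.81-fold in replicate 1 and 12-fold in replicate 2, and between Dyrk2 and Cand1, with 6.34-fold and 12.8-fold.

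A motif at the 1% score stood within 150 bp of the midpoint in 1459 members, which is 39.5% (37.9 to 41.1), beside 41.3% of all autosomal peaks and 41.5% of the others. Windows flanking the peaks reached this score in 0.333% of cases in deserts and in 1.02% elsewhere. The order of the classes turned with the limit: within 50 bp, where the 1% score is 13.1 bits, the motif share of desert peaks was 5.06 percentage points above that of the others. The 1% score of the wider window is a strict limit, since the median best score was 17.0 bits in desert peaks and 17.2 in the others, just under it. At the score reached by 5% of flanking windows, 11.2 bits, 83.1% of desert peaks and 81.6% of the others held a match within 150 bp. The motif centre lay a median of 23.0 bp from the midpoint of the peak, and 48.8% of the motifs were on the plus strand. Motif-bearing desert peaks had a median of 11.2-fold and those without 10.1-fold. For other peaks the medians were 13.1 and 11.8, so desert peaks were lower in both classes.

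Within the motif, a single 12-base word at positions 4 to 15 accounted for 484 of the 1459 motif-bearing members, or 33.2%. It is ccagaagagggc, the word in the capitals of both Gm4868 to Tmem132c windows above, and was chosen because it is the most frequent of the 158 words at these positions. It also led among other peaks, with 5142 of 14439, or 35.6%. The next word among desert peaks, ccagcagagggc, had 73 members, and ccagaagggggc had 50. The leading word stood in 320 deserts and occurred 48308 times on the autosomes, 5.56 copies per Mb in deserts and 26.4 elsewhere.

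Peaks on the leading word were weaker than other motif-bearing peaks and had flanks more alike, inside the deserts and outside. They had a median of 9.57-fold, against 11.8-fold for motif-bearing desert peaks with other words. In replicate 1 the 2 medians were 11.1 and 13.5, and in replicate 2 they were 11.1 and 13.4. Over the 20 bases on either side of the motif, the most frequent base at a position was present in 58.0% of the leading-word members on average and in 37.6% of members with other words. Outside the deserts these shares were 54.6% and 36.9%, and peaks on the leading word had a median of 9.92-fold. No repeat annotation was used here, so how many of these peaks lie in annotated B2 copies was not tested.

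Occupancy separated the 2 kinds of match. Desert matches at the 1% score that carry the leading word lay inside a peak in 17.7% of 2922 cases, and those with other words in 52.3% of 1983 (50.1 to 54.5). Outside the deserts the shares were 19.9% and 66.3% (65.5 to 67.0). The occupied share was lower far from coding starts for both kinds. For other words it was 57.6% (54.7 to 60.5) at 100 to 250 kb and 33.3% (20.8 to 47.9) beyond 1000 kb, the last resting on 51 matches. For the leading word it was 19.7% at 100 to 250 kb and 7.92% of 101 matches beyond 1000 kb.

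The orientations of neighbouring motifs were counted within each desert. Of 734 pairs of neighbouring motif-bearing members in the same desert, 161 pointed towards each other, or 21.9% (19 to 25.1). Another 176 pointed apart, or 24.0% (20.9 to 27.2), and 397 pointed in 1 direction, or 54.1% (50.4 to 57.7). Unrelated strands at the plus-strand share of these motifs would give 25% facing, 25% apart and 50% in 1 direction. Without the deserts that hold segments annotated as immunoglobulin genes, 701 pairs remained. Of these, 23% (19.9 to 26.3) faced each other, 25.1% (21.9 to 28.5) pointed apart and 51.9% (48.2 to 55.7) pointed in 1 direction. The median distance from a desert peak to the nearest CTCF peak of any kind was 30.7 kb, against 10.3 kb for other peaks. No other peak stood within 250 kb of 271 desert peaks, or 7.34%, and of 0.485% of the others. Close neighbours within 10 kb were present for 25.9% of desert peaks and for 49.1% of the others.

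The members were spread over 1118 of 1740 deserts, where a desert is the gap between neighbouring coding gene spans that holds sequence meeting the rule. Of these, 362 held a single member and 51 held 10 or more, and 230 deserts were enough to hold 50% of all members. Longer deserts were emptier. Deserts with under 0.25 Mb of deep sequence held 11.3 peaks per Mb, those of 0.5 to 1 Mb 5.17, and the 52 deserts of 2 Mb or more 1.81. Medians of fold enrichment were 11.2, 10.4 and 9.42 in these classes. Only long deserts hold positions far from coding starts, so length and distance were not told apart here. Of 195 deserts with at least 1 Mb of deep sequence, 11 had no member, and 9 of these had none in either replicate list as well. The longest of the 11 lay between Tmprss15, the enteropeptidase gene, and Ncam2, a neural cell adhesion gene, with 1.91 Mb. The others named are Pcdh9 to 4921530L21Rik with 1.79 Mb and Ripk2 to Mmp16 with 1.49 Mb, each with 1 peak in a single replicate list.

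The 10 deserts with most members held 233 of them, or 6.31%. The fullest, between Gm4868 and Tmem132c on chromosome 5 (deep sequence chr5:126429111-127622177), had 46 peaks in 1.19 Mb, or 38.6 per Mb, with 40 and 44 in the replicate lists. A motif stood in 31 of the 46, or 67.4%, with 14 on the plus strand and 17 on the minus strand. The leading word was in 11 of these 31, beside 33.2% of all motif-bearing members. It was the highest such count of any desert, in the desert with most peaks. The strongest of the 46, the first window shown above, had 24.5-fold pooled, 31.9 in replicate 1 and 28.0 in replicate 2. Mostly repeated sequence, where over 50% of the 24-base words occur at least 2 times, was found in 0 of the 46 peaks.

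Another 5 of the 10 lie in sequence that is little repeated. Between Fam86 and Rbfox1, a splicing regulator of neurons, 24 peaks had a median of 13.2-fold. Its strongest had 28.8-fold pooled, 34.3 in replicate 1 and 38.6 in replicate 2, number 9 among all members. Between Igsf11 and Lsamp, both genes of cell adhesion molecules of the immunoglobulin superfamily, 21 peaks were spread over 2.41 Mb, or 8.73 per Mb, at a median spacing of 106 kb. Between Med13l, a Mediator kinase module subunit, and Tbx3, a T-box transcription factor of limb and heart development, 19 peaks stood in 0.81 Mb, and 13 held a motif. Between Nphp4, a ciliary transition zone gene, and Ajap1 there were 18 peaks in 0.77 Mb, and between Kazn and Prdm2, a PR-domain methyltransferase gene, 17 in 0.74 Mb with a motif in 11.

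The remaining 4 of the 10 lie in sequence that is repeated or that codes for antigen receptor segments. In the chromosome 12 deserts Gm17680 to Gm17391, Gm17391 to Gm10330 and Gm9257 to Gm10479, 34, 20 and 16 peaks were counted, and each of them had over 50% of their words present at least 2 times. Their median fold enrichments were 6.96, 7.10 and 6.40, and a motif stood in 7, 4 and 2 peaks. The mm9 reference is of strain C57BL/6J, not 129/Ola. Short reads from such copies may match several places, and the treatment of such reads by the aligner was not stated in the deposited descriptions. The desert Gm10905 to B230359F08Rik on chromosome 14 had 18 peaks in 0.27 Mb, or 66.5 per Mb. It holds 37 segments that the annotation types as immunoglobulin variable genes. Which antigen receptor they code for was not tested here. The coding rule leaves such segments out, so this is a desert only by the rule. Of its 18 peaks, 17 lay in mostly repeated sequence as well. All 12 of its motifs were on the plus strand, and whether they lie in copies of the same sequence was not tested. Deserts with such segments numbered 14 and held 86 members. Over all members, 262 or 7.10% lay in mostly repeated sequence, beside 6.05% of other peaks.

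**Figure D4:**
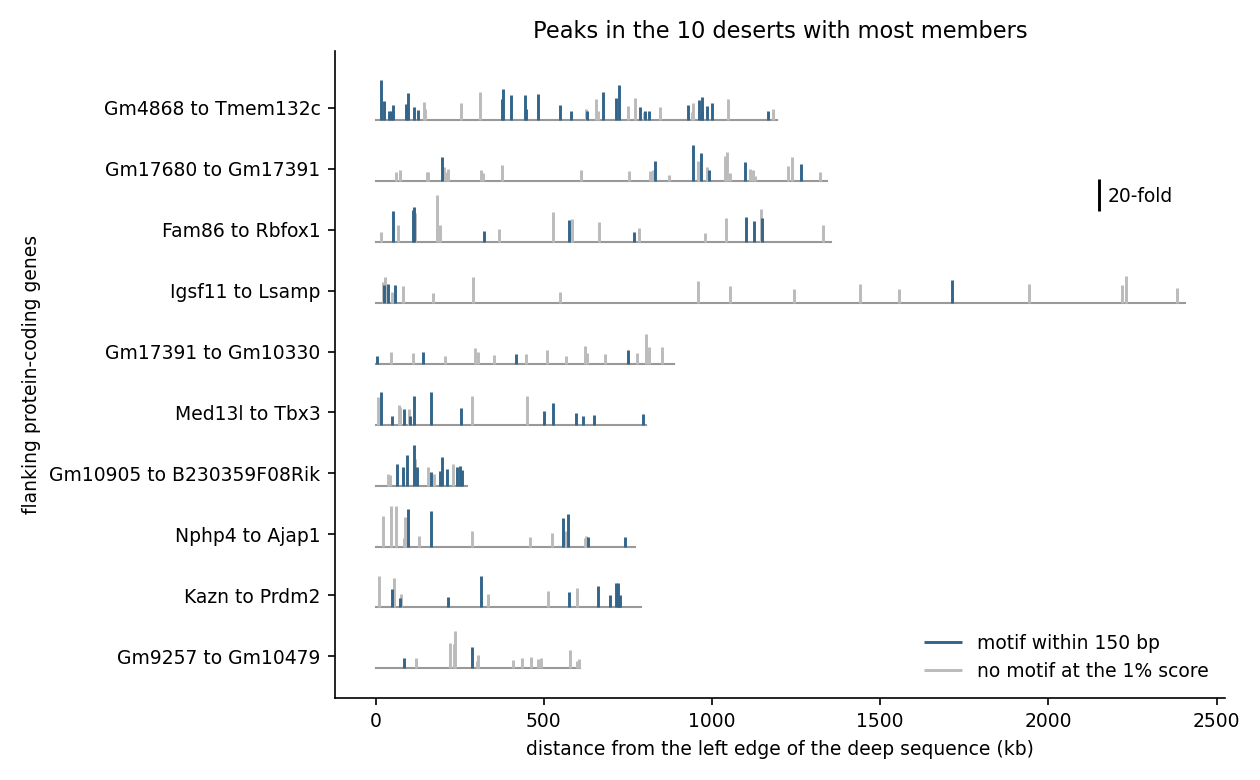
Members of the 10 deserts with most peaks, by distance from the left edge of the deep sequence in kb; the height of a line is the pooled fold enrichment (scale line 20-fold) and blue marks a motif at the 1% score. The Gm4868 to Tmem132c desert has 31 motif-bearing peaks of 46, and the Igsf11 to Lsamp desert spreads 21 peaks over 2.41 Mb.

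Taken as groups, deserts flanked by developmental transcription factors held more peaks per Mb than those flanked by neural adhesion genes. Gene families with a flank in 111 deserts, such as Tbx, Sox, Pax and Irx, had 367 members in 47.2 Mb, or 7.78 per Mb, with 7.19 and 7.38 in the replicate lists. Families of neural adhesion and guidance, such as cadherins, protocadherins and contactin-associated proteins, flanked 105 deserts with 314 members in 114.2 Mb, or 2.75 per Mb, with 2.52 and 2.55 in the replicate lists. Deserts beside none of the listed families had 5.48 per Mb. The neural group held the longer deserts, and density was lower in long deserts; the part of length in this difference was not tested. Examples of the first group are E130304I02Rik to Tshz3, with 13 peaks in 0.70 Mb, and Ebf1 to Clint1, with 12 in 0.74 Mb. Examples of the second are Cdh6 to Cdh9, with 9 peaks in 3.40 Mb, and Dsel to Cntnap5a, with 9 in 3.62 Mb. Another desert of this group, Cdh26 to 4930591A17Rik, held 13 peaks in 0.78 Mb, or 16.6 per Mb. In the first group Ebf1 to Clint1 had 16.2 per Mb and Med13l to Tbx3 had 23.6. Deserts without a member numbered 27 of 105 in the second group and 25 of 111 in the first, beside 622 of all 1740 deserts. Chemosensory receptor genes flanked 25 deserts with 2.4 Mb in all and 21 members, or 8.67 per Mb, and 20 of the 25 had none. The median fold enrichment was 10.4 in the first group and 10.1 in the second.

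The strongest desert peak stood 342622 bp from the nearest coding start, between the ribosomal protein gene Rps24 and Zmiz1, a transcriptional coactivator gene, at chr14:25935529-25936570. It had 31.4-fold pooled, 40.4 in replicate 1 and 42.8 in replicate 2, and ranked 101 among all autosomal peaks. Next came a peak between Hdac4, a class IIa histone deacetylase gene, and Ndufa10, a respiratory complex I gene, with 30.8-fold pooled, 36.2 in replicate 1 and 46.8 in replicate 2. The others of the 10 strongest had 28.4 to 30.5-fold and lay in the deserts Nebl to H2afb1, Gpr158 to Myo3a, Btg1 to Dcn, Itga1 to Gm6404, Zfp706 to Grhl2, Pcmtd1 to Sntg1, Fam86 to Rbfox1 and Ywhaq to Gm17680. Of the 10, only the last had a motif at the 1% score, with 21.5 bits. The best scores of the others went from 2.92 bits at Pcmtd1 to Sntg1 to 17.3 bits at Zfp706 to Grhl2, below the limit of 18.2 bits. At the looser limit of 11.2 bits, reached by 5% of flanking windows, most of them held a match, from 13.1 bits at Itga1 to Gm6404 upwards. Those at Gpr158 to Myo3a (9.73 bits), Fam86 to Rbfox1 (6.58 bits) and Pcmtd1 to Sntg1 did not.

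The member farthest from any coding start stood 2389737 bp away, between Cntnap5b, a neural contactin-associated protein gene, and the cadherin gene Cdh20. It had 8.30-fold pooled, 8.18 in replicate 1 and 10 in replicate 2, with a motif of 21.7 bits. The same desert held another of the 5 farthest, at 1856435 bp, with 6.75-fold and no call in replicate 1. A peak between Celf4 and Pik3c3, in the longest deep stretch of 4.32 Mb, stood 2083151 bp away with 5.49-fold and no call in replicate 2. Between 4930555F03Rik and Aga a peak 1922280 bp away had 6.05-fold, and between the protocadherin gene Pcdh7 and G6pd2 one at 1811894 bp had 13.8-fold, above the median of all members.

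Long noncoding and other genes reach into these deserts. A gene of a type other than protein-coding covered the midpoint of 166 members, or 4.50%, beside 3.87% of other peaks. Within 1000 bp of the start of such a gene lay 73 members. No such count is given for other peaks, so the 73 cannot be set against a background.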

How the data were processed

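CTCF ChIP-seq peak lists of 2 libraries were used. Per the deposited descriptions, the authors called broad peaks on mm9 in each library and in the 2 combined. Each deposited peak has a fold enrichment (a ratio on the authors' scale) and a −log10 p. The deposited mm10 lists carry a signal per peak from the authors' caller and served as an alternative. The authors' aligner and peak caller were not given in the sources used here. Depth is unknown.

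Coding spans, transcription starts and sequence came from mm9 with GENCODE vM1. A 19-base motif was learned by expectation maximisation on the 5000 strongest peaks outside deserts. Its score limit was that reached by 1% of windows 1500 to 5000 bp from peaks. Repeated sequence was the percent of 24-base words within 150 bp found 2 or 10 times or more. Replicate peaks matched by 1 bp of overlap. The methods were tested on simulated data, with Python 3.11.15, numpy 2.4.6 and scipy 1.17.1. Members and gene lists were chosen with earlier results of these data known. Named are the flanks of the 10 fullest deserts, the 10 strongest and 5 farthest members, the 3 members per direction with the widest replicate ratio and the 3 longest empty deserts of 1 Mb or more. The leading word and the genome-wide match counts were added after the data were seen. Peaks are not replicates, so shares carry 95% exact binomial intervals and comparisons between libraries carry an SD of 2.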

Additional observations from a re-analysis of the deposited data

How the results depend on the processing

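The density ratio and the strength ratio stayed below 1 under every alternative run. The alternatives on repeated sequence and on segments annotated as immunoglobulin genes were chosen after seeing the data. With a limit of 50 kb and of 250 kb, deserts held 16.4% and 3.65% of peaks, at density ratios of 0.320 and 0.177, strength ratios of 0.886 and 0.793, motif shares of 40.3% and 36.7%, shares in both replicates of 84.6% and 80.1%, and motif share differences of -1.18 and -4.79 percentage points. Away from noncoding genes too, the share was 5.12%, the density ratio 0.234, the motif share 40.5% and the difference -0.797. For peaks of at least 10-fold these were 8.29%, 0.214, 42.7% and -1.47, and the strength ratio was 0.903. In the mm10 conservative set, with RefSeq genes, the share was 10.1%, the density ratio 0.260 and the strength ratio 0.821. The motif share was 19.1% at the 0.1% score, 83.1% at the 5% score, 57.9% within 50 bp at the 1% score of that window (13.1 bits), and 41.5% in the whole peak. The difference to other peaks reversed to 5.06 points within 50 bp, where window and score both changed, and 1.54 at the 5% score, and was -0.612 at the 0.1% score and -4.56 in the whole peak; the cause was not tested. Pairs under 100 kb and 20 to 500 kb apart had convergent shares of 19.3% and 19.9%. The median percent of words found 10 times or more was 0, and of those found 2 times or more 1.44. Without peaks in mostly repeated sequence the share was 9.49%, the motif share 40.3%, the difference -0.464 and the convergent share 22.6%. Without deserts holding segments annotated as immunoglobulin genes the share was 9.38% and the convergent share 23.0%. Each replicate list alone gave shares of 9.42 to 9.48%, density ratios of 0.246 to 0.248, motif shares of 40.1 to 40.7%, differences of -2.47 to -2.19, convergent shares of 20.7 to 21.2% and ratios of strength beyond 500 kb to 100 to 250 kb of 0.775 to 0.796, beside 0.791 in the pooled list. The strength and density ratios are taken within each library, and no further replicate block was fitted because there is a single group. Fold enrichment has no known depth behind it, which limits what weak peaks can show.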
